A study of Mus musculus with 2 samples.

Results

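The genes described here are the 3 Mir9 copies (Mir9-1, Mir9-2 and Mir9-3) and the 3 Mir124a copies (Mir124a-1, Mir124a-2 and Mir124a-3) of the mouse genome, 6 of the 2202 miRNA genes counted. They were chosen by name, as the rows whose identifiers carry these names in GENCODE M21, and all 6 have a row in both tables. The data are microRNA-seq counts from RNA under 30 nt, labelled as taken from the left side of the cerebral cortex. The mice were B6CASTF1/J males (F1 of C57BL/6J with CAST/EiJ) aged 4 days. The study holds 1 group with 2 libraries, labelled biological replicates 1 and 2, and no treatment or control. Each label gives its male another number while the donor quoted is the same, so the libraries may or may not come from separate animals.

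A miRNA gene is transcribed into a hairpin, from which a 5p and a 3p arm of about the length of a small RNA read are cut and loaded into Argonaute, where the seed at the 5′ end of the arm pairs with target mRNAs. miR-124 is an abundant miRNA of differentiated neurons and represses Ptbp1, a splicing factor of non-neuronal cells and progenitors. miR-9 is made in neural progenitors and in neurons and acts in neurogenesis, and both of its arms are known to have targets in the REST repressor complex. Each of these miRNAs is encoded at several loci, so a read of the mature arm can fit several places in the genome.

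The mature sequences are shown because they are what the copies have in common. In the RefSeq sequence table used here (GRCm38.p6), 3 of the 6 genes matched by symbol, Mir9-1, Mir9-2 and Mir9-3. These copies carry the same 5p arm of 23 nt and the same 3p arm of 22 nt. Capitals mark the seed, bases 2 to 8 from the 5′ end.
mmu-miR-9-5p: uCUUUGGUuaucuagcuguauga
mmu-miR-9-3p: aUAAAGCUagauaaccgaaagu
The arms have different seeds, and among the 1679 mature names of the table each seed occurs under 1 name, at these 3 genes.

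The hairpins are shown because the copies differ outside the arms. Mir9-1 lies at chr3:88215598-88215686 (89 nt), Mir9-2 at chr13:83738814-83738885 (72 nt) and Mir9-3 at chr7:79505264-79505353 (90 nt), all on the plus strand. Capitals mark the arms.
Mir9-1: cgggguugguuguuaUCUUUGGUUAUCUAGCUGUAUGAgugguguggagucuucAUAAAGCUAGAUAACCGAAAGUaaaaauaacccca
Mir9-2: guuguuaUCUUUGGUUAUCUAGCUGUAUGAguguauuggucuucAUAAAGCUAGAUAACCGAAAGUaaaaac
Mir9-3: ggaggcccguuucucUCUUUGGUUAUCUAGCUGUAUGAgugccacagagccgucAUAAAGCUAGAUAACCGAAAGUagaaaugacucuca
Mir9-1 and Mir9-2 shared a stretch of 33 nt around each arm. Mir9-3 shared 26 nt with either of them around the 5p arm and 25 nt around the 3p arm.

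The bases next to the arms show how far a read must reach to name a copy. Each window below holds an arm with its flanks, and capitals mark the nearest base on each side that differs from another copy. The 5p windows lie at chr3:88215612-88215639, chr13:83738820-83738847 and chr7:79505278-79505305.
Mir9-1 5p: AucuuugguuaucuagcuguaugagugG
Mir9-2 5p: AucuuugguuaucuagcuguaugagugU
Mir9-3 5p: CucuuugguuaucuagcuguaugagugC
The 3p windows lie at chr3:88215645-88215679, chr13:83738851-83738885 and chr7:79505311-79505345.
Mir9-1 3p: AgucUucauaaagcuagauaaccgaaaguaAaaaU
Mir9-2 3p: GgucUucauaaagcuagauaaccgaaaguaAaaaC
Mir9-3 3p: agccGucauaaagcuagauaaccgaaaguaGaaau
The base just before the 5p arm set Mir9-3 apart from both other copies, whereas the copies Mir9-1 and Mir9-2 shared the 7 bases before that arm, up to the end of the Mir9-2 hairpin. After the 5p arm, all 3 copies shared 3 bases and parted at the fourth. After the 3p arm, Mir9-3 parted from the others at base 2, and Mir9-1 and Mir9-2 parted from each other at base 6.

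A stretch that starts at the annotated 5p start had to be 27 nt long in all 3 copies before it occurred in no other of the 1005 hairpins of the table. At the annotated 3p start it had to be 24 nt long in Mir9-3 and 28 nt in Mir9-1 and Mir9-2. A stretch starting 1 base earlier than the 5p arm had to be 28 nt in Mir9-1 and Mir9-2, and 16 nt, the shortest length searched, in Mir9-3. Of all 22-nt stretches, 87.0% of 69 in Mir9-3, 64.7% of 68 in Mir9-1 and 52.9% of 51 in Mir9-2 occurred in no other hairpin. The annotated arms themselves are not among them. The search covered the hairpins on both strands, and the rest of the genome was not used here.

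**Figure D1:**
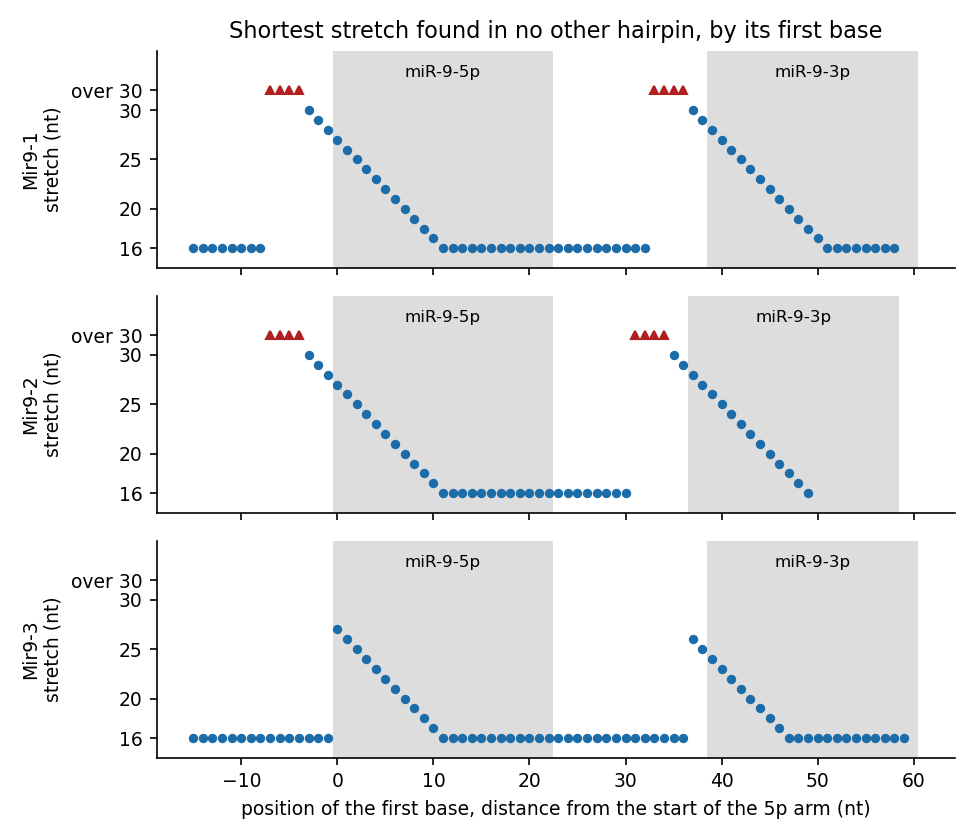
Shortest stretch of 16 to 30 nt (vertical axis, nt) that occurs in no other hairpin of the RefSeq table, by the position of its first base relative to the start of the 5p arm (horizontal axis, nt), for the 3 Mir9 hairpins. Grey bands are the mature arms, triangles mark positions where more than 30 nt are needed, and positions with no point are too close to the hairpin's end. At the 3p start Mir9-3 needs 24 nt and the other copies 28 nt.

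Both tables list the reads placed at several sites in an entry of their own, outside the gene rows. In the library labelled replicate 1 this entry held 4626252 of 10029659 reads (46.1%). The library labelled replicate 2 had 2706949 of 6800067 there (39.8%). Own-strand reads of all miRNA genes summed to 2999032 and 3577964, and these totals are the base of all CPM values (own-strand counts scaled to a total of 1000000) here. The 6 copies together had 1043 and 2 reads on their own strand, which equals 0.0225% and 7.39e-05% of the reads placed at several sites. How many of the latter reads came from miR-9 or miR-124 is not recorded in the tables. The counts below are therefore counts of reads that could be given to a copy, and not levels of the mature miRNAs.

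The library labelled replicate 2 went against its cortex label in its marker genes. The 9 muscle miRNA genes held 0.00730% and 15.7% of own-strand counts in the libraries labelled replicate 1 and 2. Of these 9 genes, 3 and 8 had 1 count or more. Nearly all of the 15.7% was Mir206, with log2(CPM + 1) of 6.16 and 17.3 in the libraries labelled replicate 1 and 2. The next highest muscle gene in the latter library, Mir499, had 1.59 and 8.83. The 6 Hox cluster genes, of hindbrain and trunk, held 0.0231% and 1.97%. A list of 16 other neural miRNA genes held 4.41% and 0.135%. Vascular genes (4) held 1.71% and 4.70%, and oligodendrocyte genes (4) 0.0616% and 0.0454%. The oligodendrocyte sum hides members that differ. In the libraries labelled replicate 1 and 2, Mir219a-1 with Mir219a-2 had 353 and 13 reads, whereas Mir338 had log2(CPM + 1) of 8.96 and 8.82. The 2 of 4 red blood cell genes found by name held 0.00167% and 0.00682%. All these lists were chosen with earlier results of these data known. Each result below is a difference between these libraries as labelled, the part of other tissue in it was not tested, and in bulk RNA fewer cells of a type and less RNA per cell cannot be told apart.

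All 6 copies kept at least 1 read in the library labelled replicate 1, and 2 of them did in the library labelled replicate 2. Among all 2202 miRNA genes, 31.5% and 27.4% had at least 1 read. At least 10 reads were seen for 2 of the 6 copies, Mir9-3 and Mir9-1, in the former library and for 0 in the latter, against 19.0% and 14.5% of all genes.

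Mir9-3 (ENSMUSG00000093238.1), in an intron of the long noncoding RNA gene Mir9-3hg, had 837 reads in the library labelled replicate 1 and 1 read in that labelled replicate 2. Those counts are 279 CPM (exact 95% binomial interval 261 to 299) and 0.279 CPM (0.00708 to 1.56), with a mean of 139.7 ± 197 (SD, n = 2). The ratio was 999-fold (interval 179 to 39488) with total counts. With TMM scaling, which takes most genes to be unchanged between libraries, it was 377-fold (67.6 to 14927). Of the 463 genes tested below, 79.9% differed, so that assumption is in doubt here and neither scaling is known to be right. Nearly all reads that named this copy were thus in the library labelled replicate 1, and the intervals of the libraries were far apart. Intervals and limits cover counting error only and treat reads as separate. Reads after amplification are not separate molecules, so the intervals can be too narrow even for that.

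Mir9-1 (ENSMUSG00000106493.1) lies in an intron of the long noncoding RNA gene Gm3764 and opposite to the annotated miRNA gene Gm25641, which spans it on the minus strand. It had 187 reads in the library labelled replicate 1 and 1 read in that labelled replicate 2. That is 62.4 CPM (53.7 to 72.0) and 0.279 CPM (0.00708 to 1.56), a ratio of 223-fold (39.6 to 8858) with total counts and 84.3-fold (15.0 to 3349) with TMM. In the column of reads from either strand, Mir9-1 and Gm25641 had 0 reads in both libraries. For Mir9-1 this 0 is not an absence of reads, since its own-strand column holds them. The either-strand column has an entry of ambiguous reads (169744 and 424395), and which genes these touch is not recorded. Gm25641 also had 0 own-strand reads in both, and its opposite-strand column held 187 and 1, the numbers that Mir9-1 has on its own strand. Mir129-2 of the neural list, which went from 472 and 10 own-strand reads to 4 and 0 in that column, was the only list gene to lose reads there, and was picked for this after its values were seen.

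Mir9-2 (ENSMUSG00000065424.2), which overlaps an exon of the long noncoding RNA gene C130071C03Rik, had 7 and 0 reads. That is 2.33 CPM (0.938 to 4.81) in the library labelled replicate 1. The exact 95% interval of the ratio, replicate 1 over replicate 2, starts at 1.72-fold with total counts and at 0.650-fold with TMM, so that with TMM these counts set no direction. Its hairpin is the shortest annotated of the 3 copies, at 72 nt, and shares the longer stretches with Mir9-1.

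The reads that named a Mir9 copy were unevenly split. In the library labelled replicate 1 Mir9-3 held 81.2% of the 1031 reads (exact 95% interval 78.7 to 83.5), Mir9-1 18.1% (15.8 to 20.6) and Mir9-2 0.679% (0.273 to 1.39). The intervals do not overlap. In the library labelled replicate 2 the family had 2 reads, so that a share of 50.0% for Mir9-3 carried an interval of 1.26 to 98.7. The copy with the most reads was the copy with the shortest shared stretches, but Mir9-1 and Mir9-2, which share 33 nt around each arm with each other, differed as well (187 and 7 reads). Which part of a hairpin these reads cover is not recorded in the tables, and the part of sequence in the split was not tested.

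The Mir124a copies are listed with few reads. Mir124a-1 (ENSMUSG00000065597.1; chr14:64590657-64590741, overlapping an exon of Mir124a-1hg) had 8 reads in the library labelled replicate 1, or 2.67 CPM (1.15 to 5.26), and 0 in the library labelled replicate 2. Mir124a-2 (ENSMUSG00000093073.1; chr3:17795662-17795770, overlapping an exon of Mir124-2hg) had 3 and 0, the former being 1.00 CPM (0.206 to 2.92). Mir124a-3 (ENSMUSG00000065454.2; chr2:180894040-180894107, with its last 3 bases in an exon of Gm27032) had 1 and 0, the former being 0.333 CPM (0.00844 to 1.86). In the library labelled replicate 1 the ranges of the 3 copies overlap, and their order was not tested.

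Summed over the copies, Mir124a had 12 and 0 reads, or 4.00 CPM (2.07 to 6.99) and 0 CPM, with an exact upper limit of 1.03. The exact 95% interval of the ratio, replicate 1 over replicate 2, starts at 3.31-fold with total counts and at 1.25-fold with TMM. For Mir124a-1 alone it starts at 2.04-fold and 0.770-fold, so that with TMM its counts set no direction, and the counts of Mir124a-2 and Mir124a-3 were at or under 3 in both libraries. Mir124a-3 had 1 read on the opposite strand in each library, and the other 5 copies had 0.

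**Figure D2:**
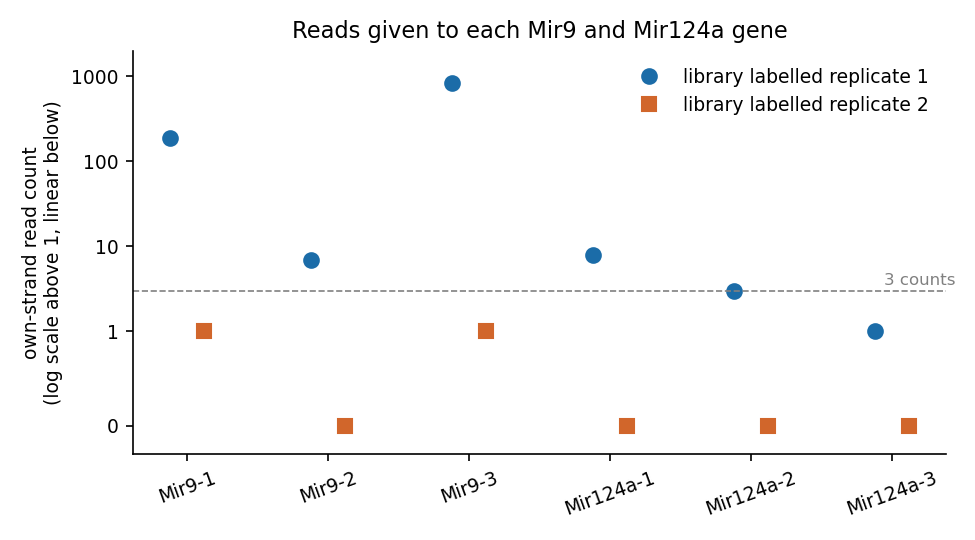
Own-strand read counts (vertical axis, logarithmic above 1 and linear below) of the 6 copies in the library labelled replicate 1 (circles) and the library labelled replicate 2 (squares). The dashed line is the working limit of 3 counts set for a count of 0. Mir9-3 and Mir9-1 stand at 837 and 187 in the former library and at 1 in the latter.

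In the library labelled replicate 1 the copies ranked Mir9-3, Mir9-1, Mir124a-1, Mir9-2, Mir124a-2 and Mir124a-3 by count. The intervals of Mir9-3 and Mir9-1 were apart from each other and from those of the other 4 copies, whose intervals overlapped between neighbours. Among all 2202 genes of that library Mir9-3 ranked 148 and Mir9-1 ranked 233. Every copy in the library labelled replicate 2 had 0 or 1 read and no order was detectable at these counts.

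The sum of the Mir9 copies was 1031 and 2 reads, or 344 CPM (323 to 365) and 0.559 CPM (0.0677 to 2.02), with a mean of 172 ± 243 CPM (SD, n = 2). The ratio was 615-fold (170 to 5085) with total counts and 232-fold (64.2 to 1922) with TMM. At the same CPM in both libraries, with total counts, 1230 reads would have fallen on the Mir9 copies in the library labelled replicate 2 and 14.3 on the Mir124a copies. There, 2 and 0 were seen. With TMM the expected numbers are lower and were not computed.

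The libraries were compared over all miRNA genes with at least 10 own-strand counts summed, gene by gene. The two-sided exact binomial test set each gene's split against the split of TMM-scaled library sizes, and p-values were adjusted by Benjamini-Hochberg over all genes tested. The test sets 2 libraries against counting error and compares no conditions. Of 463 genes, 370 passed (79.9%), 182 of them lower (39.3%) and 188 higher (40.6%) in the library labelled replicate 2. With total counts in place of TMM, 417 passed (90.1%), 295 lower (63.7%) and 122 higher (26.3%), and the median log2 ratio over these 463 genes moved from -0.26 to -1.35.

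Of the 6 copies, 2 reached the minimum of 10 counts. Mir9-3 and Mir9-1 did so through the library labelled replicate 1 alone, so their passing supports nothing about the copies as a set. Their log2 ratios (TMM, prior of 1 CPM), replicate 2 over replicate 1, were -6.89 and -4.76. Without the minimum all 6 copies were tested, and Mir9-3 (adjusted p = 8.72e-133) and Mir9-1 (adjusted p = 1.67e-28) passed as lower by the exact binomial test. These p-values set 1 library against 1 library with counting error only. With a spread beyond counting error set at a coefficient of variation of 0.4 (edgeR exact negative binomial test, with the minimum), the adjusted p was 6.79e-09 and 1.56e-05. Without the minimum the other 4 copies did not pass, with adjusted exact p of 0.121 for Mir124a-1, 0.181 for Mir9-2, 0.703 for Mir124a-2 and 1 for Mir124a-3. With the negative binomial test 43% of the 463 genes passed, 19.2% lower and 23.8% higher. Without the minimum 48.8% of 758 genes passed, 22.6% lower and 26.3% higher.

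**Figure D3:**
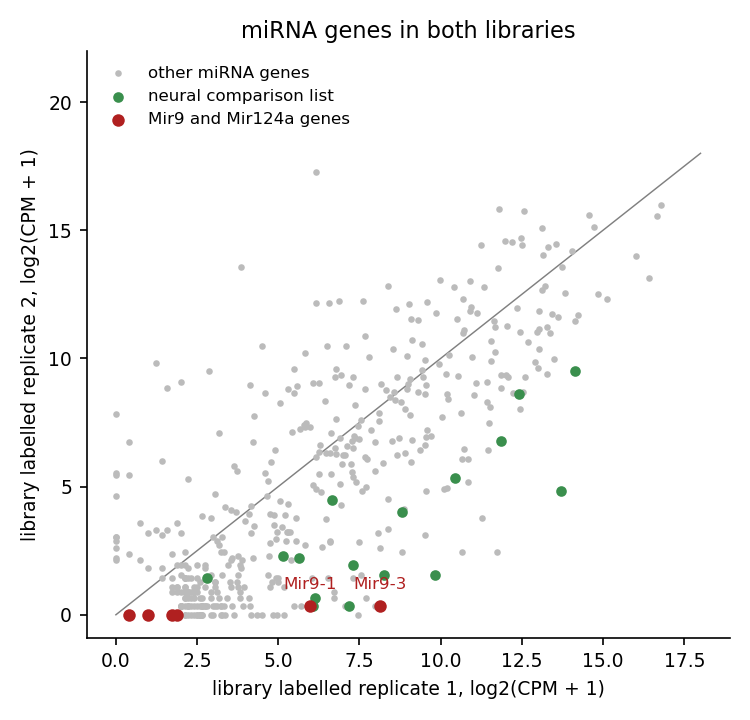
Abundance of each tested miRNA gene and of the 6 copies, as log2(CPM + 1), in the library labelled replicate 1 (horizontal axis) and the library labelled replicate 2 (vertical axis), with the line of equal values. The copies (red) lie at the bottom, at 0 or 1 read in the library labelled replicate 2, and the neural list (green) lies below the line.

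The list of 16 other neural miRNA genes gives the same libraries' counts for miRNAs of neurons at other loci. There, 15 genes passed as lower and 0 as higher in the library labelled replicate 2, and Mir218-1 did not pass (18 and 6 reads, adjusted exact binomial p = 0.692), beside 39.3% lower among all tested genes. With total counts in place of TMM all 16 passed as lower, Mir218-1 among them, beside 63.7% of all tested genes. With the negative binomial test 13 of the 16 passed as lower, beside 19.2%. The median log2 ratio of the list was -3.70, beside -0.26 for all tested genes, and -5.09 beside -1.35 with total counts. The list was chosen with earlier results of these data known, so these values are a description and not separate support.

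Ratios within the list ran from 3.58-fold (1.36 to 11.0) for Mir218-1 to 519-fold (92.7 to 20545) for Mir7-2, higher in the library labelled replicate 1 with total counts. Mir137, known from synapses, had 40242 and 99 reads, a 485-fold ratio (398 to 597). Mir7b, of the miR-7 family of neurons and endocrine cells, had 2743 and 7 reads, a 468-fold ratio (227 to 1164). The intervals of Mir9-3 (179 to 39488) and Mir9-1 (39.6 to 8858) cover the ratio of Mir137.

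Activity-regulated Mir132 had 11179 and 391 reads and its neighbour Mir212 had 145 and 13. Their ratios, 34.1-fold (30.8 to 37.8) and 13.3-fold (7.54 to 25.6), lie below the interval of Mir9-3. Mir128-1 and Mir128-2, which encode a miRNA of many neuron types, had 53592 and 16271 reads in the library labelled replicate 1 and then 2623 and 1379. Mir138-1 and Mir138-2, known from dendritic spines, had 4183 and 1334 reads and then 141 and 54. Of the remaining genes, Mir488 had 912 and 7, Mir129-1 had 198 and 1, Mir153 had 205 and 2, Mir218-2 had 102 and 14, and Mir7-1 had 300 and 75 reads.

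**Figure D4:**
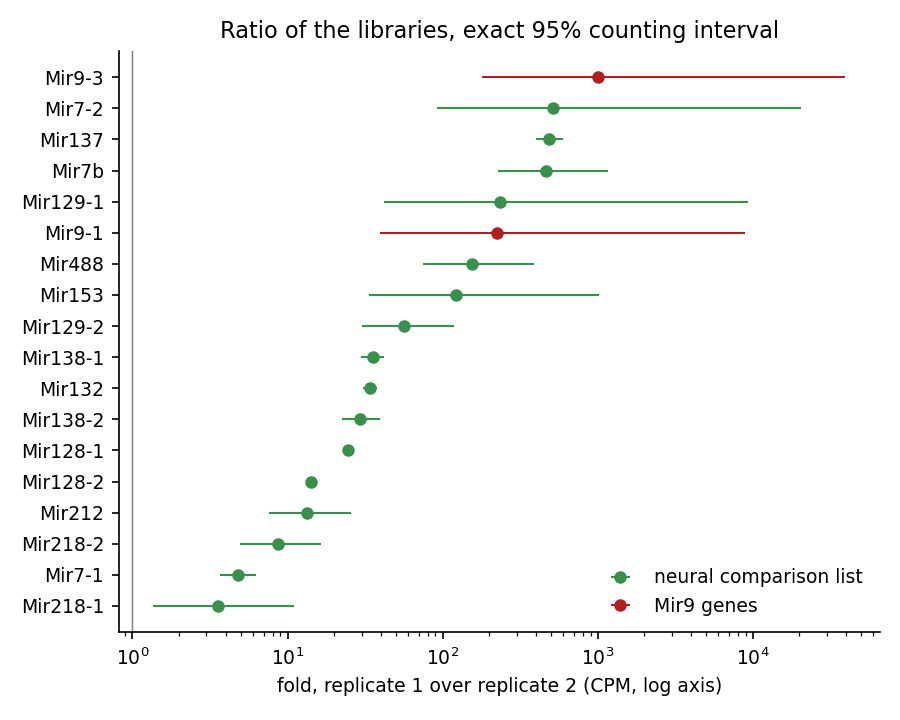
Ratio of CPM in the library labelled replicate 1 to that in the library labelled replicate 2 (horizontal log axis) for the neural list and the 2 Mir9 copies with a read in both libraries, with exact 95% intervals for counting error. Points right of 1 are higher in the library labelled replicate 1, and Mir9-3 stands at 999-fold with an interval of 179 to 39488.

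By count, the nearest single genes to the summed Mir9 copies were Mir346 (757 and 1 reads), Mir1224 (624 and 2) and Mir488 (912 and 7). Their distances from the sum were 0.53, 0.72 and 0.94 in log2(CPM + 1), over 2 libraries.

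Other miRNA genes also come in copies with an identical mature arm. The RefSeq table holds 43 such sets of counted genes. By the mean CPM of their summed counts, the 5 highest were Mir128-1 with Mir128-2 (69863 and 4002 reads), Mirlet7f-1 with Mirlet7f-2 (9476 and 6286), Mirlet7c-1 with Mirlet7c-2 (11038 and 1076), Mirlet7a-1 with Mirlet7c-2 (9613 and 1018) and Mir181b-1 with Mir181b-2 (8314 and 1991). In each of these, 1 of 2 arms is identical and the other arm differs between the genes. Within the library labelled replicate 2, Mir196a-1 with Mir196a-2 (4 and 3219 reads) and Mir92-1 with Mir92-2 (4550 and 2381) ranked 3 and 4, ahead of Mir181b, and were picked for this after their values were seen. Mir9, identical in both arms, ranked 12 among the 43 sets by the mean, 11 in the library labelled replicate 1 and 28 in that labelled replicate 2.

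Sets in which every annotated arm is identical, with 2 arms in each copy, numbered 7 including Mir9. Mir9 had the highest CPM of these 7 by the mean and in the library labelled replicate 1 (344). The order was the reverse in the library labelled replicate 2, with 43.3 CPM for Mir199a-1 with Mir199a-2 and 0.559 CPM for Mir9. Mir199a-1 with Mir199a-2, of mesenchymal cells, had 0 and 155 reads, Mir5615-1 with Mir5615-2 had 2 and 0, and the other 4 sets had no read in either library. How the mature miRNAs of these sets compare in level cannot be read from these counts, and the table does not hold every mouse miRNA.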

How the data were processed

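The 2 microRNA-seq libraries form 1 group. The authors deposited 1 table of raw read counts per miRNA gene for each library, in 3 columns (either strand, own strand, opposite strand), after 4 entries of reads given to no gene. Text deposited with the tables names mm10 and GENCODE M21. The aligner is not given in the sources used here. Entries without a gene were kept out of every library size and test. They made up 18.4% (unplaced), 46.1% (several sites) and 5.55% (outside miRNA genes) of all reads in the library labelled replicate 1, and 6.11%, 39.8% and 1.47% in the other.

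Own-strand counts were used. TMM factors (edgeR, over genes with at least 10 counts summed) were 1.63 and 0.615. Each gene was tested by a two-sided exact binomial test, adjusted by Benjamini-Hochberg and called under 0.05. The edgeR quasi-likelihood test has no contrast in 1 group and was not run. Log2 ratios carry a prior of 1 CPM, folds and exact Clopper-Pearson 95% intervals carry none, and a count of 0 was bounded by 3 counts per library (1.00 and 0.838 CPM). Replicates are 2 libraries, so p-values measure these libraries only. The test was run on simulated counts with counting error only, so that check does not cover a spread beyond counting error.

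Genes were located by identifier in GENCODE M21, and exon means an exon of any transcript. Arms, hairpins and sets of copies came from the RefSeq table (GRCm38.p6), matched by symbol. Of the 6 symbols 3 matched. Stretches were planned to be searched in the genome and were searched in the 1005 hairpins of this table instead. Mir124a-1, Mir124a-2 and Mir124a-3 are named only. All 6 copies and all 16 neural genes were to be named, with the 5 sets of copies of highest mean CPM and the 3 genes nearest to the Mir9 sum. The members and lists were chosen with earlier results of these data known. Alternatives were either-strand counts, DESeq2 size factors, total counts, all reads as the library size, no minimum, a minimum of 100 counts, a prior of 0.1 CPM, the negative binomial test and each library alone. Software was Python 3.11.15 (pandas 2.3.3, numpy 2.4.6, matplotlib 3.10.9, scipy 1.17.1) and R 4.3.3 (DESeq2 1.42.0, edgeR 4.0.16).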

Additional observations from a re-analysis of the deposited data

Results flagged for a closer look

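The opposite-strand column was left out of the comparisons. Gm25641, the miRNA gene annotated opposite to Mir9-1, had 187 counts there in the library labelled replicate 1 and 1 count in that labelled replicate 2. The former is more than the working limit of 3 set for a count of 0, and both equal the own-strand counts of Mir9-1. Gm25641 spans all 89 nt of Mir9-1 on the other strand, so a read on Mir9-1's own strand lies opposite to Gm25641. These counts are therefore no further signal beside those of Mir9-1.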

How the results depend on the processing

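Of 54 values computed under alternatives for the genes and sums named here, 0 changed direction and 5 moved past the limits set for them. Some of the 54 could not move. The prior does not enter the exact test, and neither the minimum nor the test enters a gene's log2 ratio. The 54 are therefore not separate checks, and their number says nothing about stability. Genes no longer tested under an alternative are not among the 54. That holds for Mir9-1 with either-strand counts, where it had 0 reads in both libraries and its result was lost. The mean of the Mir9 sum, 172 CPM, was 0.559 to 344 with a library left out, and that of Mir124a, 2.00, was 0 to 4.00. With 2 libraries each lies within 1 SD of the mean by construction, so this says nothing about stability. The number of genes that differ was 199 with the negative binomial test, against 370. The count of copies with a read was 6, and leaving out a library gave 2 to 6 (2 without the library labelled replicate 1). At least 10 reads were held by 2. The share of Mir9 reads held by Mir9-3, 81.1% over both libraries, was 99.2% with either-strand counts, which hold no read of Mir9-1, and 50.0% to 81.2% with a library left out, where 50.0% rests on 2 reads. The minimum, the prior and the test do not enter the sums. No paired analysis was possible because the 2 libraries form 1 group. Depth limits the order among the 4 copies with 8 reads or fewer.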
